A study of Rattus norvegicus with 3 samples.

Results

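The nuclear-encoded subunits of the mitochondrial respiratory chain were followed across the cell classes of the rat nucleus accumbens and across 3 groups of animals. Members were taken by gene symbol alone: the Nduf subunit genes, Sdha to Sdhd, the Uqcr genes with Cyc1, the Cox4 to Cox8 genes, and all symbols that begin with Atp5, with assembly factors left out. The rule found 96 of the 23098 features in the count tables. They comprised 47 features of complex I, 4 of complex II, 9 of complex III, 17 of complex IV and 19 of complex V, and 12 of the 96 were pseudogene copies by their symbol. The data were single-nucleus RNA counts, 1 library per group, made with a 3' gene expression kit. Outbred Wistar rats had been sorted into low and high anxiety by a maze and by tests in an open arena with an unfamiliar object, and a share of the high anxiety rats was given urolithin A, a gut-derived metabolite of dietary ellagitannins, for 2 months. The low anxiety and high anxiety rats were labelled as untreated. Each library was made from nuclei of accumbens punches of 5 hemispheres pooled before isolation, at 16 weeks of age. A difference between 2 libraries therefore compares 2 pools and has no replicate check.

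The respiratory chain is the series of enzymes in the inner mitochondrial membrane that passes electrons from NADH and succinate to oxygen and uses the resulting proton gradient to make ATP. Complex I (NADH dehydrogenase) and complex II (succinate dehydrogenase, also an enzyme of the citric acid cycle) feed electrons to ubiquinone, complex III (cytochrome bc1) passes them to cytochrome c, complex IV (cytochrome c oxidase) reduces oxygen, and complex V is the ATP synthase. Mitochondrial DNA encodes a few core subunits of every complex except complex II, while most subunits are encoded in the nucleus, translated in the cytosol and imported. In nuclei, the counts of these genes come from nuclear RNA and from the little cytoplasmic RNA carried along. They measure neither protein nor respiration.

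The libraries held 3619, 4066 and 3739 nuclei for low anxiety, high anxiety and urolithin A, with 16728049, 22095390 and 19162530 unique molecules (UMIs), and 3379, 3694 and 3421 nuclei were kept. The subunits took 0.436%, 0.447% and 0.492% of all UMIs in that order, and the mitochondrially encoded genes took 1.13%, 1.31% and 1.52%. Between 4 and 6 cell barcodes were shared by any 2 libraries. Nuclei were clustered anew and named from marker genes, since an annotation by the authors was not used here, so class names are rebuilt ones. The classes with enough nuclei were D1 and D2 medium spiny neurons (the projection neurons of the striatum, which carry dopamine receptor 1 or 2), eccentric medium spiny neurons, GABAergic interneurons, astrocytes, oligodendrocytes, oligodendrocyte precursors and microglia. Each class was led by its own markers. In D2 neurons, for example, the D2 marker list summed to between 4441 and 4771 CPM (UMIs out of every 1000000 UMIs of the class) against 32 to 59 CPM for the D1 list. The D1 name was less sure, since in 1 of its 2 clusters D1 markers stood only 0.38 (log2) above the other clusters on average.

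Of the 96 features, 78 had at least 100 UMIs over all kept nuclei, 18 had fewer, and 7 of those had none. The weak ones were mostly pseudogene copies and tissue-specific isoforms: Cox4i2 had 33 UMIs, Cox6a2 had 14, Cox7a1 had 80, Cox7b2 had 56 and Cox8c had none. Cox8a, Cox8b, Cox6b2 and Atp5mc1 were not analysed here. The class comparison below could test 76 members.

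Promoter sequences give a view of these genes that the counts do not. Of the 93 member symbols, 71 had a window in RefSeq (assembly GRCr8, from 250 bases before to 50 bases after the annotated start), out of 33469 windows. NRF1, GABP (an ETS factor) and YY1 are known regulators of respiratory genes, and the core of each motif was searched on both strands. The NRF1 core GCGCATGC stood in 12.7% of member windows against 2.47% of all windows, the ETS core CCGGAAGT in 9.86% against 3.81%, and the YY1 core AAGATGGC in 19.7% against 3.17%. Any of them stood in 26 of the 71 member windows (36.6%) against 8.84% of all. Base composition was not matched between the sets. The YY1 core lay mostly downstream of the start: 12 of its 14 matches in members read along the gene and began between base -1 and base 37, that is at the base before the start or after it, where 34.3% of the matches in all windows did. The YY1 core contains the letters ATG, and these stretches lie at the start of the transcript. The sites below show that placement, with the motif in capitals, 5' to 3' along the gene.
Ndufs4: ttgcccacaggAAGATGGCggcggtctcaa
Ndufs7: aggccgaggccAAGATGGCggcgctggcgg
Ndufa9: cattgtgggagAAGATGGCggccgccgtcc
Sdhc: ggccggaactcAAGATGGCtgcgctcttgc
Atp5po: ctgcccgggaaAAGATGGCcgcaccagcaa
The match in Ndufs4 (chr2:47794892-47794921, minus strand) and in Ndufs7 (chr7:10110476-10110505, minus strand) began at base 5 after the start. It began at base 11 in Ndufa9 (chr4:161374142-161374171, minus strand), at base 4 in Sdhc (chr13:86098004-86098033, minus strand) and at base 2 in Atp5po (chr11:44657464-44657493, minus strand).

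The NRF1 core lay further upstream, and its palindromic form gave overlapping matches on both strands in some members. The examples below are 3 NRF1 sites and 2 ETS sites.
Ndufa11: gcgctgtGCGCATGCGCATGCGCacaggcc
Atp5mc2: ggctctagtcGCGCATGCGCagagccttct
Sdhb: aagcccagtggGCATGCGCcctactggccg
Ndufb7: ggctagatgacCCGGAAGTcactgaagggg
Cox5b: tctgtctgttcCCGGAAGTgcatctgcttg
Ndufa11 (chr9:1637510-1637539, plus strand) held 4 overlapping NRF1 matches from base -97, and Atp5mc2 (chr7:135678255-135678284, minus strand) held 2 from base -56. The NRF1 match of Sdhb (chr5:158547756-158547785, plus strand) began at base -167 and reads on the opposite strand. The ETS match of Ndufb7 (chr19:41477289-41477318, minus strand) began at base -16 and that of Cox5b (chr9:46417812-46417841, plus strand) at base -14. Of the members with any of the motifs, 14 of 24 were called higher in GABAergic interneurons, and of those without, 22 of 41. In oligodendrocytes the counts were 19 of 24 and 27 of 41. For the NRF1 core alone they were 8 of 8 with it and 38 of 57 without it. In interneurons these NRF1 counts were 4 of 8 and 32 of 57. The median differences with and without the NRF1 core were 0.39 and 0.41 (log2) in oligodendrocytes and 0.26 and 0.47 in interneurons. Of all tested genes 36.9% were called higher in oligodendrocytes and 23.5% in interneurons. No test between members with and without a motif was run. A match is a run of letters and was not tied to binding or to any value below.

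The summed level of the subunits differed by class more than by library. Levels are given in CPM and in the order low anxiety, high anxiety, urolithin A. D1 neurons held 4039, 4066 and 4230, and D2 neurons held 3904, 3813 and 4318. GABAergic interneurons were highest of the 8 classes in each library, at 5991, 6402 and 6376. Oligodendrocytes (4871, 5090 and 5099) and astrocytes (4664, 5227 and 5268) lay above the D1 and D2 neurons, eccentric neurons (4486, 4272 and 4642) lay slightly above them, and microglia (4057, 4349 and 4080) overlapped them. Oligodendrocyte precursors were lowest of the 8 classes, at 3682, 3615 and 3919.

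**Figure D1:**
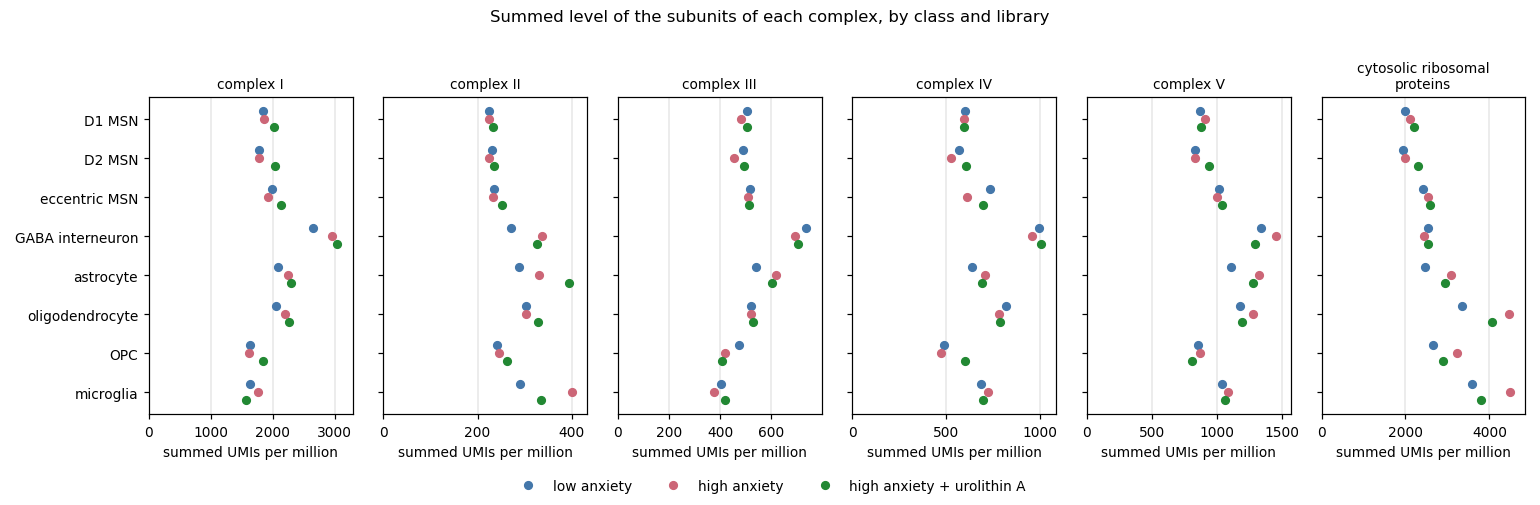
Summed CPM (linear axis from 0) of the subunits of complexes I to V and of 91 cytosolic ribosomal protein features, by class (rows) and library (coloured points, 1 library per group, no error bars since the counting error is small at this scale). GABAergic interneurons stand to the right for complexes I, III, IV and V but not for ribosomal proteins, where oligodendrocytes and microglia lie to the right of the neurons.

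The complexes did not share 1 order of classes. Complex I summed to 2648, 2965 and 3046 CPM in interneurons and to 1636, 1766 and 1570 in microglia, against 1839, 1863 and 2025 in D1 neurons. Complex II was turned around, with 291, 400 and 334 in microglia against 223, 224 and 232 in D1 neurons. Complex III was lowest in microglia (403, 376 and 420) and in oligodendrocyte precursors (473, 419 and 406), while D1 neurons held 505, 480 and 505. Complex IV reached 998, 957 and 1007 in interneurons and 823, 785 and 787 in oligodendrocytes, against 600, 595 and 594 in D1 neurons.

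Differences between classes were then tested gene by gene, over all 12139 genes that passed a filter on low counts, with edgeR's quasi-likelihood test on the summed counts of 8 classes in 3 libraries and Benjamini-Hochberg adjustment at 0.05. The reference was the mean of D1 and D2 neurons. The 3 libraries are separate pools from different groups, and the classes come from the same nuclei. An adjusted p here therefore describes how steady a class difference was over these 3 pools, not over replicates of a group. D1 and D2 neurons did not differ in any member: 0 of 76 were called in either direction, against 2.28% (higher in D2) and 3.24% (lower) of all genes. At an unadjusted p under 0.05 the edgeR test also gave 0, and DESeq2 called 0. The member differences lay between -0.24 and 0.16 (log2).

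**Figure D2:**
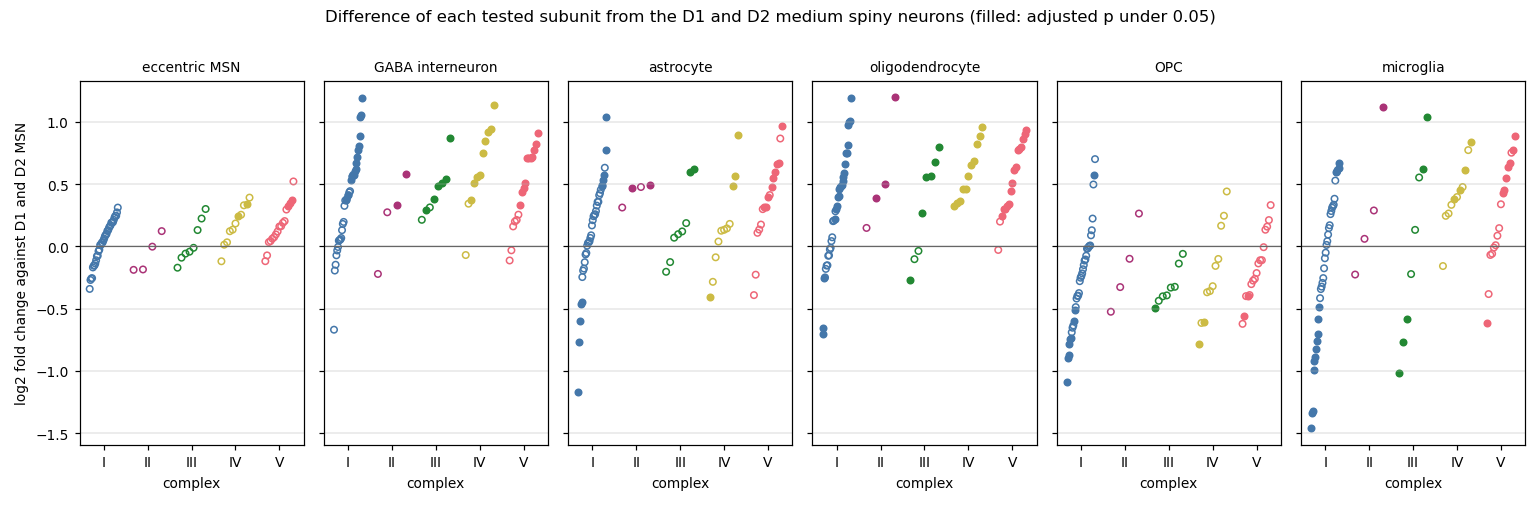
Log2 difference of each of the 76 tested subunits from the mean of D1 and D2 medium spiny neurons, sorted within complexes I to V, for 6 classes. Filled points passed an adjusted p of 0.05 in edgeR's quasi-likelihood test: 43 higher and 0 lower in GABAergic interneurons, 54 higher and 4 lower in oligodendrocytes, 17 higher and 15 lower in microglia.

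GABAergic interneurons had higher levels of some subunits of every complex than medium spiny neurons. In edgeR's test 43 of 76 members were higher and 0 lower, against 23.5% and 23.3% of all genes, and the median member difference was 0.44 (log2). No member was lower at an unadjusted p under 0.05 or in DESeq2, which called 46 higher. The higher members were 16 of 36 for complex I, 2 of 4 for complex II, 6 of 8 for complex III, 9 of 11 for complex IV and 10 of 17 for complex V. With library totals in place of TMM scaling, 58 were higher, while the median of all genes moved up to 0.14 (log2). These values rest on 67, 97 and 105 interneurons.

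In complex I, where 16 of 36 members were called higher in interneurons, accessory subunits were among the uncalled members as well as the called ones. The lowest complex I difference was -0.67 (log2). Ndufb5, an accessory subunit of the membrane arm, had 201, 215 and 292 CPM in interneurons against 88, 90.7 and 99.7 CPM in D1 neurons, so the groups of libraries did not overlap. Its difference was 1.20 (log2, SE 0.11, adjusted p = 2.7e-13 by edgeR's quasi-likelihood test). It was picked here after its values were seen, as was Cox5a below, and the annotated gene overlaps Mrpl47. Ndufb7 was higher by 1.06 (SE 0.16) and Ndufa8 by 0.77 (SE 0.13), while the core subunits Ndufs1 (-0.01), Ndufs3 (-0.03), Ndufv1 (0.05) and Ndufv2 (0.18), which carry iron-sulfur clusters or bind NADH or form the peripheral arm, were not called. Among core subunits only Ndufs7, at 57.3, 43.3 and 51 CPM in D1 neurons against 69.1, 86.7 and 82.9 in interneurons, was called higher (0.58, SE 0.13, adjusted p = 0.00034 by edgeR). Whether core and accessory subunits differ as sets was not tested.

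For the other complexes the interneuron differences included central subunits. Uqcrfs1, the Rieske iron-sulfur protein of complex III, was higher by 0.87 (SE 0.17) and Cyc1, its cytochrome c1, by 0.51 (SE 0.12). Cox4i1, a regulatory subunit of complex IV, had 301, 261 and 317 CPM in interneurons against 167, 161 and 159 in D1 neurons (0.75, SE 0.08, adjusted p = 8.1e-11 by edgeR). Cox5a, another complex IV subunit that binds close to Cox4, was at 29.8, 28 and 29.1 in D1 neurons and 71.3, 70.1 and 75.2 in interneurons, with a difference of 1.14 (SE 0.15). Ndufa4, sorted under complex I by its symbol although its protein is now placed with complex IV, was at 121, 143 and 171 in D1 neurons and 292, 289 and 297 in interneurons. For complex V, the catalytic subunit Atp5f1b was at 119, 117 and 107 against 212, 223 and 181 (0.71, SE 0.09), Atp5f1a was higher by 0.44 (SE 0.15), and the inhibitor Atp5if1 by 0.33 (SE 0.14, adjusted p = 0.039 by edgeR). Of complex II, Sdha was called higher (0.59) and Sdhd was not (-0.22, SE 0.20).

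Within the interneurons the cluster led by Kit and Pthlh held the highest level in 2 of 3 libraries. Pvalb, the usual marker of fast-spiking interneurons, was low there, at 10.9, 22.9 and 20.4 CPM. The cluster held 7252, 6809 and 7460 CPM of the subunits in 23, 48 and 53 nuclei. The cluster with Sst and Npy, genes of low-threshold spiking interneurons, held 5100, 4706 and 4885 in 27, 23 and 47 nuclei, so its highest library lay below the lowest of the Kit cluster. Ndufa4 was at 404, 356 and 398 in the Kit cluster and 244, 148 and 174 in the Sst cluster. The ribosomal protein features went the other way between these clusters, at 2145, 2291 and 2374 in the Kit cluster and 3015, 2819 and 2633 in the Sst cluster. Another small cluster with Sst, and with Vip in the low anxiety library only, held 5147, 6908 and 5808 in 17, 26 and 5 nuclei, so in the high anxiety library it stood above the Kit cluster. Pvalb was at 65.9 CPM in it there. These are clusters of the same nuclei that gave the class, so no test was run between them.

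**Figure D3:**
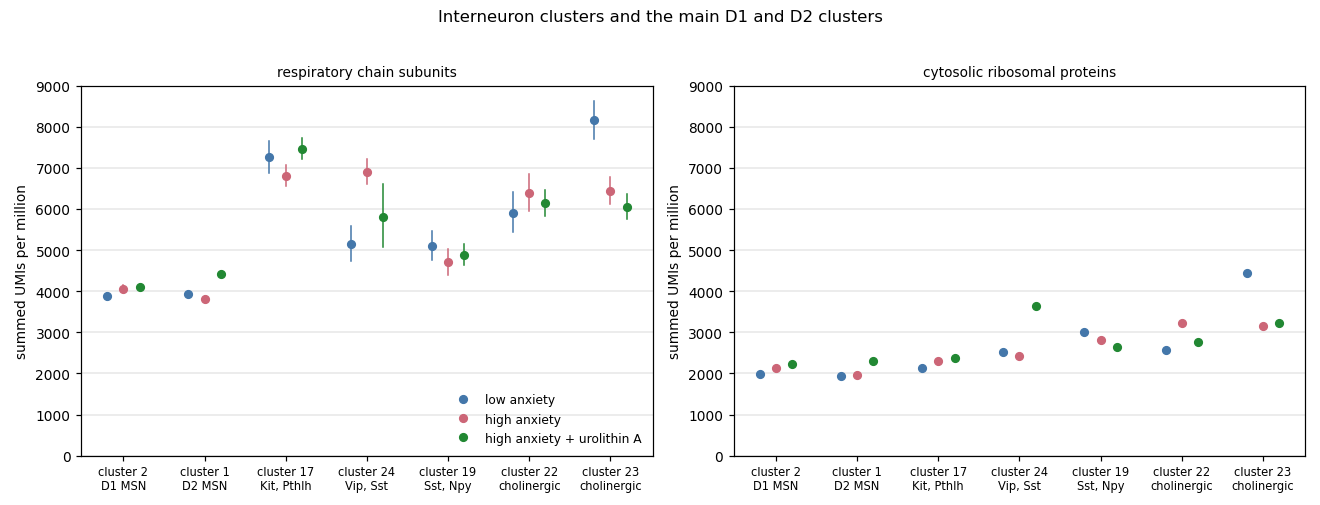
Summed CPM (axes from 0) of the respiratory chain subunits (left, with exact 95% counting intervals) and of cytosolic ribosomal proteins (right) in the main D1 and D2 clusters and in 5 interneuron clusters, by library. The Kit and Pthlh cluster lies between 6809 and 7460 in the left panel and beside the medium spiny neurons in the right panel.

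Oligodendrocytes, the myelinating cells, were higher for most subunits. In edgeR's test 54 of 76 members were higher and 4 lower, against 36.9% and 38.1% of all genes, with a median of 0.45 (log2). All 11 tested members of complex IV were higher, as were 15 of 17 of complex V, 3 of 4 of complex II, 5 of 8 of complex III and 20 of 36 of complex I. Sdhd, a membrane anchor of complex II, was at 27.7, 27.2 and 29.7 CPM in D1 neurons and at 66.9, 67.3 and 57.4 in oligodendrocytes (1.20, SE 0.11, adjusted p = 2.1e-13 by edgeR). Ndufb11, an accessory subunit of complex I, rose from 25.4, 24.4 and 23 to 53.3, 58.7 and 53.2 (1.20, SE 0.12), and the core subunit Ndufs8 was higher by 1.01 (SE 0.14). Cox7a2 was higher by 0.96 (SE 0.11), the second of 2 features named Cox6b1 by 0.89 (SE 0.18), Atp5pd by 0.94 (SE 0.10), Atp5mf by 0.90 (SE 0.12), Uqcr10 by 0.80 (SE 0.12), Uqcrfs1 by 0.68 (SE 0.13) and Sdha by 0.50 (SE 0.10).

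The 4 members that were lower in oligodendrocytes included Ndufs3, at 22.3, 28.6 and 31.7 CPM against 50.7, 46.9 and 46.8 in D1 neurons (-0.70, SE 0.12), and Ndufc1, at 61.9, 56.7 and 56 against 118, 79.5 and 103 (-0.66, SE 0.10). Cyc1 was lower by a small amount (-0.27, SE 0.11, adjusted p = 0.02 by edgeR). With every class limited to its largest cluster, the medium spiny neurons included, the Cyc1 difference was 0.01. The annotated Ndufs3 overlaps Kbtbd4, and the counts cannot show whether reads of the 2 genes were kept apart. Ribosomal protein genes were higher too, 59 of 64 with a median of 0.99, and 10 of 13 mitochondrially encoded genes were higher. Their part in the subunit difference was not tested. With a stricter filter on nuclei (1000 or more genes detected, mitochondrial UMIs no more than 1%), 33 members were higher. Without the high anxiety library, 2 were lower. The class was not uniform in summed level. An oligodendrocyte cluster of 52, 58 and 62 nuclei held 3946, 3778 and 3921 CPM of the subunits, against 5052, 5334 and 5280 in the largest cluster. Mitochondrially encoded genes took 0.71%, 0.633% and 0.496% of its UMIs, against 2.13%, 1.95% and 1.76% in the largest cluster. The part of that in the subunit levels was not tested.

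Astrocytes were higher for 22 of 76 members and lower for 6, against 27.4% and 28.9% of all genes, so the share of higher members was near that of all genes. The alpha subunit of ATP synthase, Atp5f1a, was at 47.7, 49 and 41.3 CPM in D1 neurons against 78.6, 100 and 100 in astrocytes (0.97, SE 0.16, adjusted p = 1.1e-06 by edgeR). Complex V had 9 of 17 members higher and 0 lower, Atp5f1d among them at 0.67 (SE 0.19). Ndufs1, the largest iron-sulfur subunit of complex I, was at 62.6, 64.2 and 65.8 in D1 neurons and 106, 115 and 121 in astrocytes (0.78, SE 0.13). Complex I was split, with 6 of 36 higher and 5 lower. Ndufs5 was higher by 1.04 (SE 0.45, adjusted p = 0.048 by edgeR), and Ndufa3 (-0.77, SE 0.31) and the pseudogene copy Ndufv3-ps1 (-1.17) were lower. Sdhc (0.49), Sdhb (0.47), Cyc1 (0.62), Uqcrb (0.59), Cox7a2 (0.56) and the first Cox6b1 feature (0.90) were higher.

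The astrocyte counts leaned on single libraries and on scaling. Without the high anxiety library 11 members were higher and 3 lower, and without the urolithin A library 13 and 3. Without the low anxiety library 3 were lower. DESeq2 called 25 higher and 1 lower, and library totals without TMM gave 29 and 2. Of the 13 mitochondrially encoded genes 7 were lower in astrocytes, and of 64 ribosomal protein genes 19 were higher and 2 lower.

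Microglia, the brain's resident macrophages, had members on both sides of the medium spiny neurons. In edgeR's test 17 of 76 members were higher and 15 lower, against 28.6% and 33.8% of all genes, so members were called in smaller shares than all genes in both directions. Complex I had 3 of 36 higher and 11 lower, while complex IV had 4 of 11 higher and 0 lower, and complex V had 7 of 17 higher and 1 lower. Whether the complexes differ from each other was not tested. Sdhb, the iron-sulfur subunit of complex II, was at 102, 98.7 and 110 CPM in D1 neurons and at 194, 254 and 212 in microglia (1.12, SE 0.11, adjusted p = 1.7e-12 by edgeR). The other complex II subunits were not called in microglia, at 0.29 (Sdha), -0.23 (Sdhc) and 0.06 (Sdhd).

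Complexes III and V were split inside microglia. Uqcrc2, a core protein of complex III, was at 148, 154 and 158 CPM in D1 neurons and at 57.6, 66.1 and 92 in microglia (-1.02, SE 0.15), and Uqcrh was lower by 0.77 (log2 -0.77, SE 0.17), while Uqcr10 (1.04, SE 0.21) and Uqcrb (0.63, SE 0.19) were higher. Within the ATP synthase head, Atp5f1c was at 118, 131 and 134 in D1 neurons and 188, 236 and 264 in microglia (0.89, SE 0.11), whereas Atp5f1b was at 119, 117 and 107 and fell to 69.7, 78.1 and 67.4 (-0.61, SE 0.15, adjusted p = 0.00036 by edgeR). The inhibitor Atp5if1 (0.63, SE 0.17), Atp5mf (0.78, SE 0.22), Cox7a2 (0.84, SE 0.20) and Cox6c (0.62, SE 0.16) were higher. In complex I, Ndufa9 was at 53.5, 65.7 and 58.4 in D1 neurons and at 30.3, 22 and 18.4 in microglia (-1.34, SE 0.23), Ndufb6 was lower (-1.32, SE 0.53, adjusted p = 0.029 by edgeR), and Ndufb8 was higher (0.67, SE 0.21). The core subunits Ndufs1 (-0.59), Ndufs3 (-0.99) and Ndufv1 (-0.71) were lower as well. Uqcrc2 overlaps Pdzd9 in the annotation.

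Beside these values in microglia, 52 of 64 ribosomal protein genes were higher and 0 lower, with a median of 1.01, and 0 of 13 mitochondrially encoded genes were called. Microglial nuclei held a median of 1599, 1889 and 1879 UMIs against 6027, 7682 and 6672 in D1 neurons. The part of either in the subunit differences was not tested. Without the high anxiety library 10 members were higher. DESeq2 called 25 of 76 members higher and 10 lower, against 3773 and 3677 of 12139 genes. The share of higher members was thus not below that of all genes with DESeq2. The edgeR test with no filter on low counts, or with the stricter nucleus filter, called 11 higher.

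In oligodendrocyte precursors the median member lay below the medium spiny neurons. In edgeR's test 13 of 76 were lower and 1 higher, against 26.2% and 25% of all genes. Members were thus called in smaller shares than all genes in both directions. The median member difference was -0.27 (log2) against -0.05 for all genes. With library totals without TMM these medians were -0.14 and 0.07. Ndufc1 was at 60.7, 38.3 and 49.5 CPM (-1.09, SE 0.17, adjusted p = 3.2e-07 by edgeR), Cox4i1 at 101, 94.6 and 99 (-0.79, SE 0.13) and Ndufc2 at 114, 106 and 134 (-0.74, SE 0.13). Ndufb4 was the 1 member called higher (0.58, SE 0.23), and it was not called in edgeR's test without the low anxiety library, with no filter on low counts or with the stricter nucleus filter, each of which called 0 higher. DESeq2 called 4 higher and 12 lower, and library totals without TMM 6 and 10. As whole classes, mature oligodendrocytes and their precursors lay on opposite sides of the medium spiny neurons in summed level, although no test of that difference was run. The oligodendrocyte cluster at 3946, 3778 and 3921 CPM did not lie above both D1 and D2 neurons in any library.

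Eccentric neurons differed little from the D1 and D2 neurons. In edgeR's test 5 members were higher and 0 lower, against 14.3% and 13.3% of all genes. They were Cox6c (0.34), Cox6a1 (0.24), Atp5po (0.37), Atp5pd (0.35) and Atp5mk (0.32), and they are all subunits of complexes IV and V. The count was 2 without the low anxiety library, 3 without the high anxiety library and 1 with the stricter nucleus filter. At an unadjusted p under 0.05 the test gave 9 higher and 2 lower, and DESeq2 called 4 and 0.

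Isoform pairs were read as the share of UMIs that fell to the tissue-specific copy, over all 3 libraries. Cox4i2, the hypoxia-linked copy of Cox4, took 6 of 2465 UMIs of the pair in D1 neurons (0.243%, 95% Clopper-Pearson interval 0.0894 to 0.529%) and no more than 0.33% in any of the 8 classes. Cox6a2, the heart and muscle form, took 10 of 288 in interneurons (3.47%, 1.68 to 6.29%), and 0 of 1270 in D1 neurons and 0 of 854 in D2 neurons. Of the interneuron UMIs 9 came from the high anxiety library. For the pair of ATP synthase c-ring genes, Atp5mc2 took 54.2% (51.3 to 57.2%) in D1 neurons, 40.7% (34.2 to 47.4%) in interneurons and 68.9% (65.2 to 72.5%) in oligodendrocytes. The 2 genes encode the same mature protein with different import sequences. In the class test Atp5mc3 was higher in interneurons (0.77, SE 0.16) and Atp5mc2 was not (-0.03), while in oligodendrocytes Atp5mc2 was higher (0.86, SE 0.11) and Atp5mc3 was not (-0.03). Ndufa4l2 took 1.2% of its pair with Ndufa4 in D1 neurons and 0.116% in oligodendrocytes. Cox7a1 took 2.14% of its pair with Cox7a2 in D1 neurons (1.07 to 3.79%, 11 UMIs) and 5.8% in oligodendrocytes (3.67 to 8.66%, 22 UMIs), with overlapping intervals. In D2 neurons it took 4.72% (2.72 to 7.55%), in interneurons 4.21% and in astrocytes 4.55%. Cox7b2 took 5.81% of its pair with Cox7b in D1 neurons and 1.35% in oligodendrocytes. These intervals cover counting error only.

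High and low anxiety were compared library against library, as the log2 ratio of CPM with an exact 95% interval for counting error. A member counted as measured with at least 100 UMIs in 1 of the 2 libraries and as different from a log2 ratio of 0.32 on in either direction. In D1 neurons 1 of 68 measured members was higher in high anxiety and 3 were lower, against 7.52% and 11.5% of all measured genes. In D2 neurons 2 of 60 were higher and 4 lower, against 7.76% and 10.5%. These shares were below those of all genes. The summed subunits stood at a ratio of 0.01 (-0.02 to 0.04) in D1 neurons and -0.03 (-0.07 to -0.00029) in D2 neurons.

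**Figure D4:**
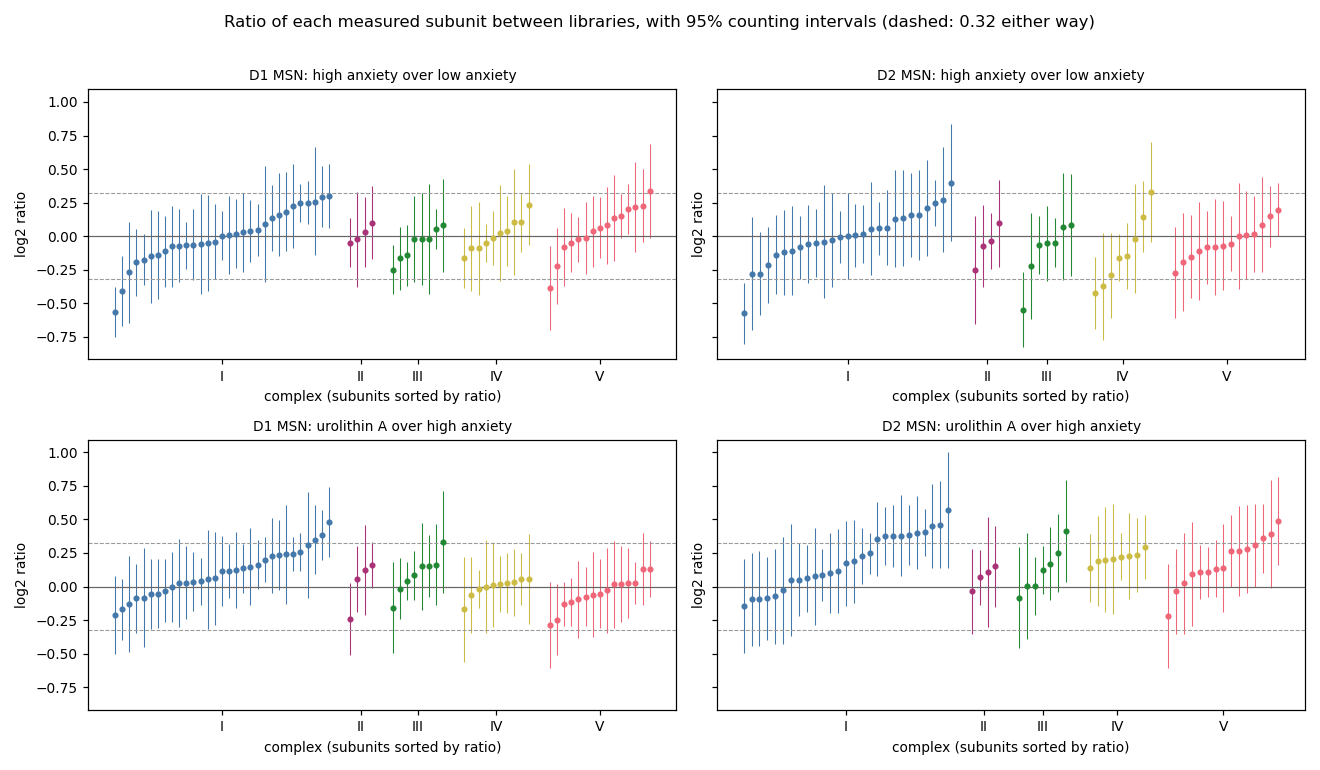
Log2 ratio of each measured subunit between 2 libraries in D1 (left) and D2 (right) medium spiny neurons, sorted within complexes I to V, with exact 95% counting intervals and dashed lines at 0.32 in either direction. In the urolithin A over high anxiety panel for D2 neurons 14 members lie above the upper line and 0 below the lower one.

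Ndufc1, a small accessory subunit of complex I, was the member with the lowest ratio of high to low anxiety in all 3 kinds of medium spiny neuron. It stood at 118, 79.5 and 103 CPM in D1 neurons, 110, 74.1 and 96.2 in D2 neurons and 110, 72.9 and 94.2 in eccentric neurons, in the order low anxiety, high anxiety, urolithin A. The high anxiety library was thus the lowest each time and the urolithin A library lay between the other 2. The ratio of high to low anxiety was -0.57 (-0.75 to -0.38) in D1, -0.57 (-0.80 to -0.35) in D2 and -0.59 (-0.91 to -0.28) in eccentric neurons, and that of urolithin A to high anxiety was 0.38, 0.38 and 0.37. The level was 169, 172 and 177 in interneurons and 61.9, 56.7 and 56 in oligodendrocytes, where the counting intervals of the libraries overlapped. In astrocytes (114, 92.5 and 112) and precursors (60.7, 38.3 and 49.5) the high anxiety library was lowest too, from 58 UMIs or fewer per library, and in microglia the values were 48.5, 50.1 and 67.4. The nuclei of the 3 neuron classes came from the same pools, so they are not 3 replicates.

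The other members at the ends of the range were few. In D1 neurons Ndufs7 (-0.41, -0.67 to -0.15) and Atp5mc3 (-0.39, -0.70 to -0.07) were lower in high anxiety, and Atp5mf was highest (0.34, -0.01 to 0.69), followed by Ndufa9 (0.30) and Ndufv2 (0.29). In D2 neurons Cyc1, which passes electrons to cytochrome c, was at 72.7, 49.7 and 59.2 CPM (-0.55, -0.83 to -0.27) and Cox7c at 73, 54.4 and 64 (-0.42, -0.69 to -0.15). Ndufb7 (0.40), Cox7a2l (0.33) and Ndufa1 (0.27) were highest there, all with intervals that included 0. In eccentric neurons 2 of 39 members were higher and 6 lower, against 11.1% and 11.2% of measured genes, and the complex IV sum went from 734 to 609 (-0.27, -0.38 to -0.16). The eccentric class was not the same mix of clusters in the 3 libraries: a weakly marked cluster gave 103, 11 and 16 of its nuclei and a small one 17, 2 and 1. In its largest cluster alone complex IV stood at 741, 609 and 681 CPM. Without the weakly marked cluster, an alternative chosen after seeing the data, the summed ratio of all subunits was -0.08 for high over low anxiety and 0.12 for urolithin A over high anxiety. In the same comparison mitochondrially encoded genes were higher, 6 of 11 in D1 and 7 of 11 in D2 neurons, with summed ratios of 0.26 and 0.30.

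In oligodendrocytes 9 of 59 members were higher in high anxiety and 1 lower, against 12% and 6% of measured genes, so the share of higher members was near that of all genes. The median member ratio was 0.05 against 0.04 for all measured genes, and the summed ratio was 0.06 (0.02 to 0.11). Ndufb7 was highest, at 39.6, 71.6 and 53.2 CPM (0.86, 0.41 to 1.32), and Ndufv3 was lowest (-0.39, -0.77 to 0.0034). Beside this, 33 of 53 measured ribosomal protein genes were higher and 0 lower in that library, with a summed ratio of 0.41 (0.36 to 0.46), and their part in the subunit values was not tested. Astrocytes had a summed ratio of 0.16 (0.08 to 0.25), microglia 0.10 (0.0013 to 0.20) and precursors -0.03 (-0.13 to 0.08), with at most 2 members measured one by one: Ndufc2 (0.02) and Atp5f1c (0.05) in astrocytes, and Sdhb (0.39, -0.05 to 0.85) and Atp5f1c (0.33, -0.12 to 0.80) in microglia. Scaled by the median gene, the microglia ratio was -0.01. In the same comparison the summed ratio of mitochondrially encoded genes was -0.80 in astrocytes, -0.67 in microglia and -0.71 in precursors, with 8 of 8 measured genes lower in each, and that of ribosomal proteins was 0.32, 0.33 and 0.28. The medium spiny neuron markers, foreign to these classes, summed to 1954 CPM in low anxiety and 1370 in high anxiety astrocytes, and to 570 and 400 in microglia. The part of these in the subunit ratios was not tested.

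**Figure D5:**
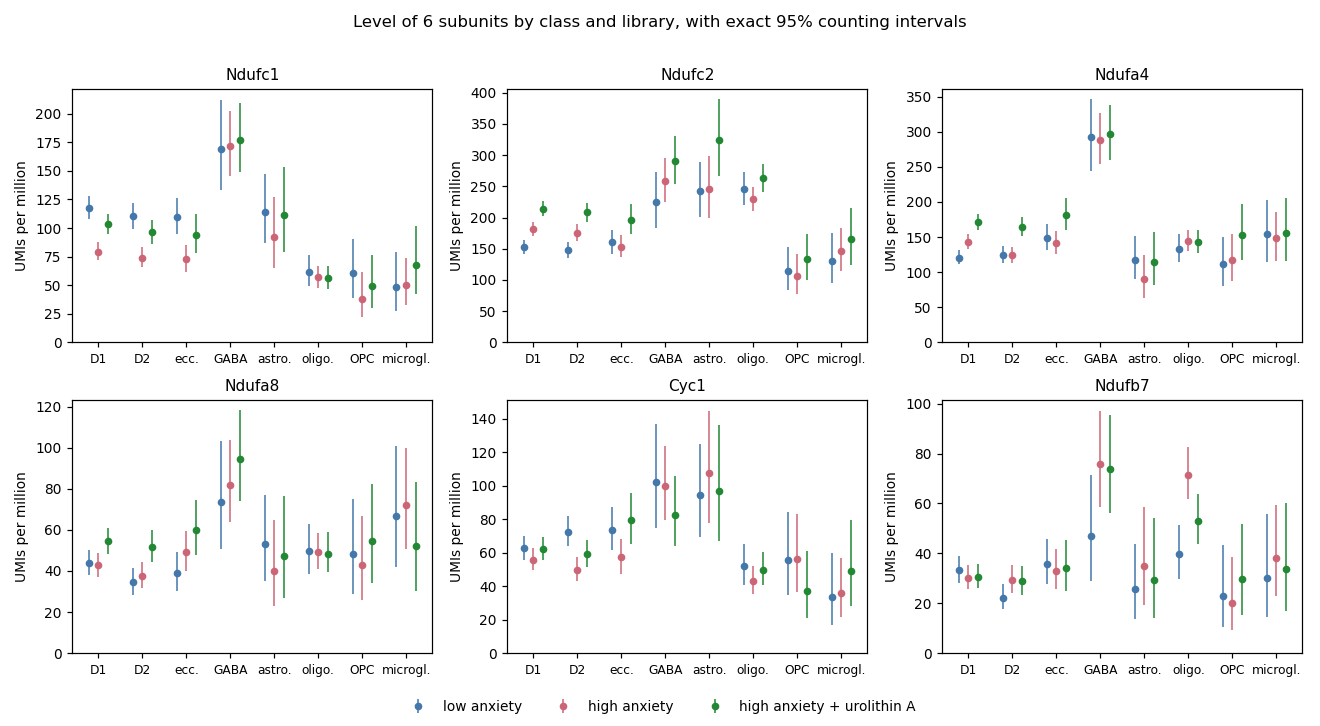
CPM of 6 subunits in 8 classes, by library, with exact 95% counting intervals (axes from 0). Ndufc1 is lowest in the high anxiety library in D1, D2 and eccentric neurons, astrocytes and precursors. Ndufc2 is highest in the urolithin A library in all 8 classes, with an interval clear of both other libraries in D1 and D2 neurons only.

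Urolithin A was compared with untreated high anxiety next. In D2 neurons 14 of 61 measured members were higher in the urolithin A library and 0 lower, against 10.2% and 4.86% of measured genes, and the median member ratio was 0.17 against 0.03 for all measured genes. The summed ratio was 0.18 (0.15 to 0.21), which is 1.13-fold, and it lay between 0.15 and 0.21 over the alternative settings. It was 0.20 for complex I, 0.12 for complex III, 0.21 for complex IV and 0.17 for complex V, and for complex II it was 0.07 with an interval that included 0 (-0.07 to 0.21). With a minimum of 200 UMIs 8 of 26 measured members were higher and 0 lower. With the stricter nucleus filter 8 of 41 were higher and 0 lower.

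Of the 14 members 10 belong to complex I by symbol, Ndufa4 among them, and complex I holds 27 of the 61 measured members. Of complex IV 0 of 8 measured members passed the threshold, although its summed ratio was 0.21 against 0.20 for complex I. Ndufb11 was at 26.1, 20.9 and 31 CPM in D2 neurons (0.57, 0.14 to 1.00, urolithin A over high anxiety), Ndufa8 at 34.5, 37.7 and 51.8 (0.46, 0.14 to 0.78), Ndufa11 at 43.7, 40.6 and 55.5 (0.45, 0.14 to 0.77) and Ndufa4 at 125, 125 and 165 (0.40, 0.23 to 0.58). For Ndufa8 and Ndufa4 the 2 untreated libraries were close and the urolithin A library stood above both. Atp5f1a, the catalytic-head alpha subunit of ATP synthase, went from 38.2 and 36.1 to 50.7 (0.49, 0.16 to 0.82), Uqcrb from 33 and 28.3 to 37.6 (0.41, 0.03 to 0.79), and Atp5pf from 65.1 and 61.5 to 78.8 (0.36, 0.10 to 0.61). The lowest ratios were those of Atp5f1d (-0.22), Ndufa12 (-0.15) and Ndufb8 (-0.09), all with intervals that included 0.

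Other gene lists moved in the same D2 library. Ribosomal protein genes had 15 of 48 higher and 0 lower with a summed ratio of 0.20 (0.16 to 0.25), about that of the subunits. Mitochondrially encoded genes had 7 of 11 higher and 0 lower with a summed ratio of 0.37 (0.35 to 0.40), and their share of D2 UMIs was 0.687%, 0.849% and 1.1%. Assembly factors had 3 of 16 higher and 1 lower. Among regulators of mitochondrial genes 0 of 6 were higher and 2 lower: Ppargc1a, a coactivator of respiratory genes, went from 1058 to 824 CPM (-0.36, -0.43 to -0.29) and Esrrg, a nuclear receptor that works with it, from 40 to 21.3 (-0.91, -1.33 to -0.50). The part of any of these in the subunit values was not tested.

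D1 neurons showed fewer members past the threshold, 4 of 68 higher and 0 lower, against 8.53% and 4.44% of measured genes. The summed ratio was 0.06 (0.03 to 0.08), and 0.12 (0.08 to 0.16) for complex I against -0.05 (-0.11 to 0.01) for complex V. Ndufa11 was at 39.6, 40.4 and 56.3 CPM (0.48, 0.22 to 0.74), Ndufa8 at 43.9, 42.7 and 54.4 (0.35, 0.09 to 0.61), and Ndufc1 had a ratio of 0.38 (0.19 to 0.57). Atp5f1a went from 49 to 41.3 in D1 neurons (-0.25, -0.51 to 0.02), the other direction from D2 neurons. Atp5f1d (-0.29) and Sdha (-0.24) were the other lowest members, with intervals that included 0. Whether D1 and D2 neurons differ in their ratios has no test, since each rests on 1 pool per group. With the stricter nucleus filter 5 of 49 measured members were higher and 3 lower in D1 neurons. With a minimum of 20 UMIs 4 of 76 were higher and 4 lower.

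In eccentric neurons 6 of 39 members were higher and 1 lower, against 8.62% and 8.05% of measured genes, with Atp5pf highest at 74.9, 63.9 and 95 CPM (0.57, 0.21 to 0.93) and Atp5pd lowest (-0.35, -0.78 to 0.07). Cox7c and Cyc1, at a ratio of 0.56 and 0.47, were among the higher ones. This ratio and that of high to low anxiety share the single high anxiety library, so a low count in it lowers one and raises the other. In oligodendrocytes 3 of 60 were higher and 5 lower, against 3.44% and 5.32%, with Ndufb8 highest (0.52, 0.17 to 0.88) and Ndufb7 lowest (-0.43, -0.78 to -0.08), and the summed ratio was 0.0025 (-0.03 to 0.04). The summed ratio was 0.12 in eccentric neurons and in precursors, 0.01 in astrocytes and -0.09 in microglia, the last 2 with intervals that included 0. Beside the precursor value, mitochondrially encoded genes had a summed ratio of 0.74, with 8 of 8 higher, and ribosomal proteins -0.16; their part in it was not tested. In microglia these ratios were 0.23 and -0.24. Sdhb (-0.27) and Atp5f1c (0.16) were the members measured one by one in microglia, and Ndufc2 (0.40) in astrocytes.

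Set against low anxiety, the urolithin A library had 13 of 61 members higher and 1 lower in D2 neurons, against 11.2% and 7.45% of measured genes, and 7 of 68 higher and 1 lower in D1 neurons, against 9.22% and 7.82%. This comparison shares a library with each of those above. Ndufc2, which pairs with Ndufc1 in the membrane arm of complex I, had its highest value with urolithin A in all 8 classes. It was at 153, 181 and 214 CPM in D1 neurons, and at 148, 176 and 208 in D2 neurons (0.49 in both for urolithin A over low anxiety). Only in D1 and D2 neurons did its urolithin A counting interval lie above those of both other libraries. In the remaining classes that interval overlapped the interval of another library, and all classes come from the same pools. In D1 neurons Ndufa11 (0.51, 0.24 to 0.78) and Ndufa4 (0.50, 0.35 to 0.66) were the other highest members, and Atp5mc3 (-0.37, -0.68 to -0.06) was lowest. In D2 neurons Atp5mf (0.71, 0.27 to 1.15), Ndufa8 (0.59, 0.25 to 0.93) and Ndufa5 (0.54, 0.22 to 0.86) were highest, and Atp5f1d (-0.33), Cyc1 (-0.30) and Ndufb3 (-0.23) were lowest. The summed ratio was 0.15 (0.11 to 0.18) in D2 and 0.07 (0.04 to 0.09) in D1 neurons. In D2 neurons all 11 measured mitochondrially encoded genes were higher, with a summed ratio of 0.68, and 19 of 48 ribosomal protein genes were. In eccentric neurons 2 of 29 members were higher and 2 lower, against 9.98% and 11% of measured genes, with Ndufb5 highest (0.54, 0.22 to 0.87) and Atp5mk lowest (-0.44, -0.87 to -0.02). In oligodendrocytes 6 of 48 were higher and 1 lower, against 9.58% and 4.62%, with Ndufb5 highest (0.45, 0.09 to 0.82) and Cox6c, at 116, 106 and 82.1 CPM, lowest (-0.50, -0.81 to -0.18). In astrocytes Ndufc2 was at 242, 245 and 324 (0.42, 0.04 to 0.80) and Atp5f1c had a ratio of -0.15.

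Genes whose proteins build and feed the chain were counted in the same test, and whether they differ from the subunits was not tested. Of 43 tested assembly factors, edgeR's test called 5 higher and 5 lower in interneurons, 15 and 17 in oligodendrocytes, 8 and 9 in astrocytes, 4 and 10 in precursors and 4 and 14 in microglia. Of all genes 23.5% were higher and 23.3% lower in interneurons, 36.9% and 38.1% in oligodendrocytes and 27.4% and 28.9% in astrocytes. In precursors these shares were 25% and 26.2%, and in microglia 28.6% and 33.8%. Assembly factors were near them in oligodendrocytes and, for lower genes, in precursors and microglia, and below them in interneurons and astrocytes. In precursors the median of the assembly factors was -0.33 (log2), on the same side as that of the subunits. Of 14 electron carrier genes, those of ubiquinone synthesis, cytochrome c and the electron transfer flavoprotein, 2 were higher and 2 lower in interneurons, 2 and 4 in oligodendrocytes, 4 and 2 in astrocytes and 2 and 7 in microglia. Of 8 regulators 2 were higher and 1 lower in interneurons and 4 and 4 in oligodendrocytes. Of 64 ribosomal protein genes 3 were higher and 1 lower in interneurons, with a median of 0.08, and 3 of 13 mitochondrially encoded genes were higher there.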

How the data were processed

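Nuclei of 3 pooled samples were measured by droplet sequencing. The authors deposited raw UMI counts for each gene and nucleus. Per the file headers the tool was Cell Ranger 7.1.0, and the submitters' processing notes name the genome build mRatBN7.2. The sources used here give neither the strand setting of the counting nor a step against free RNA.

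The filter kept nuclei with 500 or more detected genes whose mitochondrial share of UMIs did not exceed 5%. Likely doublets were removed by scrublet score, the highest 0.8% per 1000 nuclei in each library. Nuclei were clustered with scanpy 1.11.5 on 2000 variable genes, none of them a member, into 27 clusters, and 126 of 133 listed markers were found. Counts were summed by class and library, so each value rests on the total counts of a class, from 326209 to 5257352 UMIs.

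Libraries were compared as ratios of CPM (UMIs out of 1000000 in the class) with exact conditional 95% intervals for counting error. No test between groups is possible with 1 library each. Classes were compared with edgeR 4.0.16 (TMM, a library term, Benjamini-Hochberg over all genes), with DESeq2 1.42.0 as an alternative. On simulated counts for the oligodendrocyte contrast over 10904 genes, 89% of 100 genes changed 1.5-fold and 100% of 100 genes changed 2-fold were recovered, with 8 false calls. In the data 4484 of 12139 genes were called higher and 4629 lower in this contrast. The simulation therefore does not show how the test behaves where most genes differ.

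The members and lists were chosen with earlier results of these data known. Genes were named by rule: the 3 highest and 3 lowest ratios in D1 and D2 neurons and the highest and lowest in other classes, the largest called differences per complex and direction in oligodendrocytes, astrocytes and microglia, isoform pairs, core subunits, Atp5if1 and Ndufc1. Other members named were chosen after their values were seen. The values of 1 member are not reported here one by one. Sequences came from RefSeq promoter windows of GRCr8, which is not the build of the files.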

Additional observations from a re-analysis of the deposited data

How the results depend on the processing

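Each comparison was recomputed with other minimum counts, scalings, nucleus filters, clusters, doublet handling, test designs and tools. Among the alternative values of summed ratios and counts, 342 stayed within the limits used for calling a value the same, 45 moved and 1 changed sign. Among the other values, taken singly, 3843 stayed the same, 46 were stronger, 116 weaker, 74 moved and 2 changed sign. No paired analysis was possible because each group has 1 library.

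The counts of members past the ratio threshold moved with the minimum count, and so did the number of members measured. Shares of all measured genes are not reported here for these settings. With at least 200 UMIs 2 of 47 members in D1 and 3 of 25 in D2 neurons passed the threshold for high over low anxiety, all lower. In D2 neurons 8 of 26 passed it for urolithin A over high anxiety and 5 of 26 for urolithin A over low anxiety, all higher. With at least 20 UMIs they were 12 in D2 neurons for high over low anxiety and 8 in D1 neurons for urolithin A over high anxiety. The stricter nucleus filter gave 7 in D1 neurons for high over low anxiety, 8 in D1 and 8 in D2 neurons for urolithin A over high anxiety, and 7 in D2 neurons for urolithin A over low anxiety. Under that filter the summed log2 ratios of high over low anxiety were -0.042 in D1 neurons, -0.070 in D2 neurons and 0.14 in oligodendrocytes, and those of urolithin A over low anxiety were 0.0064, 0.092 and 0.14. Scaled by the median gene, the summed ratio was 0.029 in D1 neurons (urolithin A over high anxiety) and -0.012 in microglia (high over low anxiety, a change of sign). In the largest D1 cluster alone the ratios were 0.067 for high over low anxiety and 0.016 for urolithin A over high anxiety, while the other D1 cluster held 4165, 4067 and 4393 CPM of the subunits. The D2 clusters held 3939, 3822 and 4416 in the larger and 3607, 3749 and 3867 in the smaller. The causes of these shifts were not tested.

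In the class comparison, members higher in eccentric neurons numbered 9 without TMM, 3 with no library term and 1 with the stricter filter, which also called 1 lower. Lower astrocyte members numbered 1 with DESeq2, 2 without TMM and 3 with the stricter filter. Higher oligodendrocyte members numbered 33 with the stricter filter. Higher precursor members numbered 4 with DESeq2, 0 with no count filter, 6 without TMM and 0 with the stricter filter. They numbered 3 with every class limited to its largest cluster, a setting that left the precursor nuclei unchanged. Higher microglia members numbered 11 with no count filter, where the median member difference was -0.0075, and 11 with the stricter filter. With every class limited to its largest cluster, the medium spiny neurons included, the Cyc1 difference in oligodendrocytes was 0.012. Leaving out 1 library at a time gave 2 to 4 higher members in eccentric neurons, 11 to 15 higher and 3 lower in astrocytes, 2 to 4 lower in oligodendrocytes, 0 to 2 higher in precursors and 10 to 15 higher in microglia. In interneurons it gave 32 to 41 higher members. Fewer samples enter those fits. The stricter filter leaves fewer nuclei in every class, and glial classes, with the fewest UMIs per nucleus, allow few members to be measured one by one.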

Other observations

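Some clusters outside the 8 classes also carried these subunits at high levels. The 2 cholinergic clusters held 5913, 6390 and 6138 CPM of the subunits in one and 8158, 6445 and 6054 in the other, in the order low anxiety, high anxiety, urolithin A, from 15 to 34 nuclei per library. Neither was higher in every library. The second cluster had the higher Slc5a7, the choline transporter, at 1107, 1254 and 1214 against 117, 158 and 87.7 CPM. An unnamed neuronal cluster led by Spp1 and Crh held 6092, 5584 and 6172, in 81, 64 and 226 nuclei.

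A small unnamed cluster with Flt1 and Rgs5, genes of endothelial cells and pericytes, held 7744, 8383 and 24767 CPM of the subunits in 38, 32 and 21 nuclei. Its ribosomal protein level was 8821, 6297 and 31585, and Flt1 was at 875, 36.6 and 1668 with Rgs5 at 323, 805 and 157, so the cluster did not hold the same mix of cells in the 3 libraries. Ndufa4 went from 175 and 146 to 1321 and Cox4i1 from 404 and 458 to 963. The summed values above the other clusters rest on these few nuclei, and the part of cell mix in them was not tested.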
